A study of Mus musculus with 12 samples.

Results

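Genes for protein folding and stress in the endoplasmic reticulum (ER) were followed in mouse liver as a group of 34, chosen by symbol from a written list. The list holds chaperones and their co-factors, prolyl and disulfide isomerases, lectin chaperones, stress sensors, degradation factors and subunits of the translocon. All 34 were among the 27304 genes of the count table, and all 34 were among the 13641 genes that passed the filter on low counts. RNA was sequenced from 12 livers of mice that are all labelled Apoe-/-, a knockout of the gene for apolipoprotein E, which carries lipoproteins to their receptors. All of them had 12 weeks on the diet labelled HFD. By the labels, 6 of the mice were Apoe-/- controls and 6 were Apoe-/-AhR-/- (here Ahr-null, as labelled), with 3 males and 3 females of each. Ahr encodes the aryl hydrocarbon receptor, a transcription factor that is activated by small ligands. The sources used here give neither the Ahr allele nor the strain, nor the age of the mice at the start of the diet. No group with intact Apoe or without the diet was analysed here. The labels do not say whether the livers of a group came from separate litters or cages, so the p-values measure only the spread between these samples.

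Secreted and membrane proteins enter the ER through the Sec61 channel, are folded there by BiP (encoded by Hspa5) and its co-chaperones, receive disulfide bonds from protein disulfide isomerases, and are checked by the lectin chaperones calnexin and calreticulin. Proteins that fail to fold are carried back to the cytosol and degraded, a route called ER-associated degradation. When unfolded proteins build up, the sensors IRE1 (Ern1), PERK (Eif2ak3) and ATF6 start the unfolded protein response, in which the transcription factors XBP1 and cleaved ATF6 switch on chaperone and degradation genes. Hepatocytes secrete most plasma proteins and carry a large ER, and the response is known to be active in fatty and obese liver.

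The libraries held 9794253 to 18924880 counts, of which 30.4% to 69.8% fell on the 13 mitochondrially encoded genes. The RNA of Ahr itself was not called different between the genotypes (log2 fold change 0.13 ± 0.18 SE, edgeR adjusted p = 0.80), so its level does not check the labels. Apoe RNA was counted in every library as well, at 73.2 to 215 CPM (counts scaled to a common library total, after TMM scaling), so it does not check the Apoe-/- label shared by all groups either. Cyp1a1 and Cyp1a2, the textbook Ahr targets in liver, were lower by 2.45 and 3.05 on the log2 scale (log2 fold changes -2.45 ± 0.40 and -3.05 ± 0.36, edgeR adjusted p = 0.0148 and 0.00664). Cyp1a1 was near the floor, at 1.09 to 1.51 CPM in the controls and 0.120 to 0.542 CPM in the Ahr-null livers. Cyp1a2 was at 452 to 1168 CPM and 47.0 to 217 CPM in the same order. The hepatocyte markers were present in all libraries, with a sum of 23859.8 to 39727.5 CPM in 10 libraries, 50946 in Ahr-null male 3 and 85137 in Ahr-null female 1. A list of 18 neuron and glia genes summed to 244 CPM in control male 1 and to 450 CPM in Ahr-null female 1, where the remaining libraries had 15.7 to 40.8 CPM. The library Ahr-null female 1 also had 154 CPM of Xist, where the other female libraries had 678 to 1290 CPM. Of the Y-linked genes checked, it had 2.02 CPM of Kdm5d, 2.11 of Eif2s3y, 1.83 of Ddx3y and 0.5505 of Uty. The lowest values among the males were 5.205, 29.52, 37.77 and 5.268 CPM in the same order. Ahr-null female 1 was the highest female library for Kdm5d, Eif2s3y and Uty, but not for Ddx3y (2.51 CPM in control female 2). It correlated with the other libraries of its group at 0.822 and 0.826 (Pearson, log2 CPM), against 0.946 to 0.987 for the other pairs within groups. It had the highest level of its group for 22 of the 34 genes and the lowest for 8. Of all 12 libraries it was the highest for 9 genes and the lowest for 5. Ahr-null male 2 was also the highest of all 12 for 9 genes, and Ahr-null male 3 for 7. Because of the neural transcripts, counts of genes are also given without control male 1 and Ahr-null female 1. So are the values of single genes that moved most.

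Among the 34 genes the level per length spanned from 178 to 0.815 CPM per kilobase of exon, averaged over the 12 libraries. Calr, for the soluble lectin chaperone calreticulin, was at 178 ± 47.0 (SD, n = 12) and Hsp90b1, for the ER form of the HSP90 chaperones, at 143 ± 39.0 CPM per kilobase. P4hb, for the founding protein disulfide isomerase, followed at 71.5 ± 44.8, Fkbp2 at 67.1 ± 10.7 and Hspa5 at 57.1 ± 23.0 CPM per kilobase. The sensors lay at the other end. Ern1 was at 2.35 ± 0.446, Atf6 at 1.25 ± 0.265 and Eif2ak3 at 0.815 ± 0.369 CPM per kilobase. The transcription factor Xbp1 lay in between, at 13.2 ± 2.48 CPM per kilobase. In this order the step from one gene to the next was larger than the larger of their SDs only below Hsp90b1, below Edem2 and below Atf6, so most neighbours cannot be ranked.

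**Figure D1:**
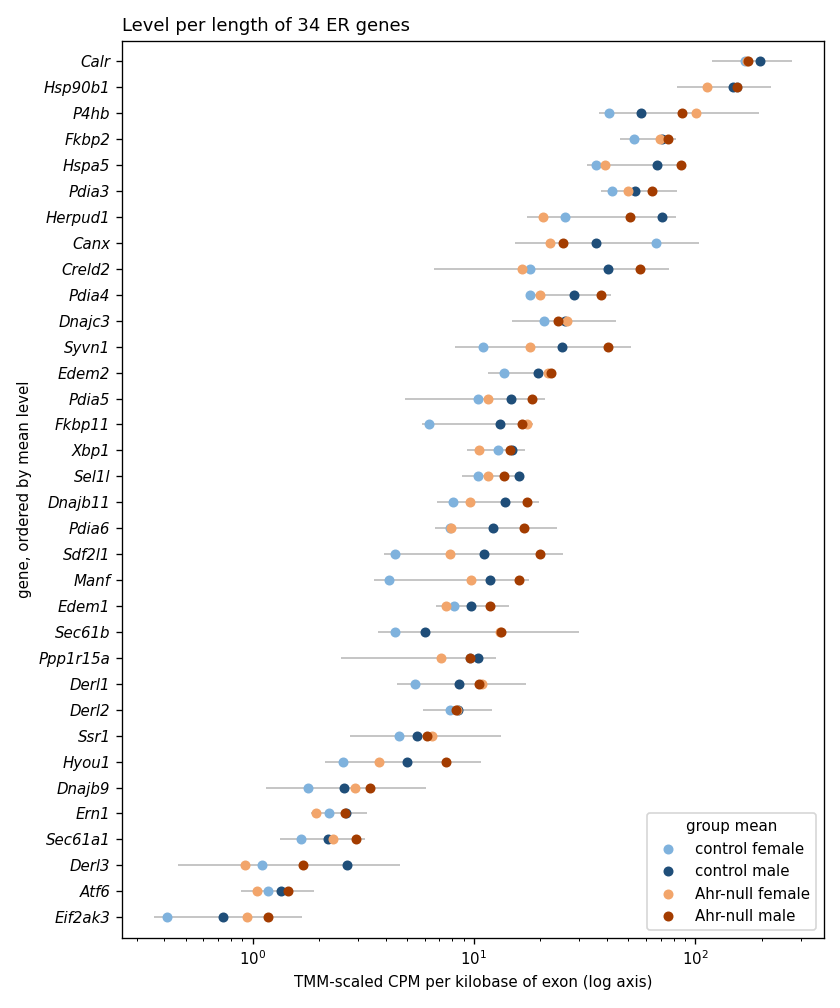
Level per length of the 34 genes on a log axis, in TMM-scaled CPM per kilobase of exon. Points are means of the 3 livers of a group and grey lines run from the lowest to the highest of the 12 libraries; Calr (178) and Hsp90b1 (143) lie above the rest, and Eif2ak3 (0.815) lies lowest.

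A summed level showed how the group as a whole moved between libraries. The 34 genes took 0.703%, 0.687% and 0.631% of the counts outside the mitochondrial genes in the control males and 0.501%, 0.640% and 0.504% in the control females. They took 0.794%, 0.803% and 0.850% in the Ahr-null males and 0.725%, 0.630% and 0.525% in the Ahr-null females. On this share the 3 Ahr-null males lay above all the other livers, and the sexes overlapped among the controls through control male 3 and control female 2. The order depended on the scale. As a sum of TMM-scaled CPM, Ahr-null male 1 was at 3320, below control male 1 (3768), control male 2 (3514), control female 2 (3339) and Ahr-null female 1 (3921). In bulk liver a change in the number of cells of a type and a change in RNA per cell cannot be told apart.

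**Figure D2:**
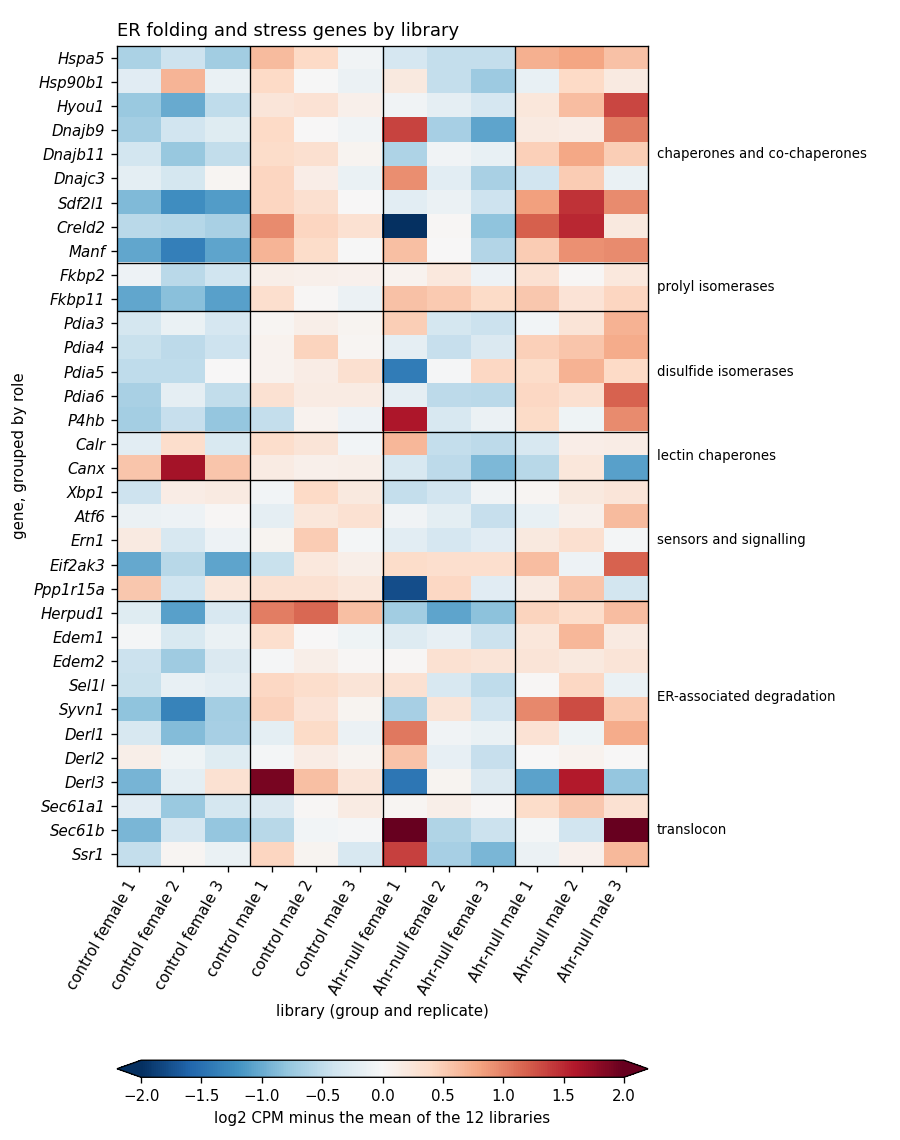
Each row is a gene, grouped by role, and each column a library; the colour is log2 CPM minus that gene's mean over the 12 libraries, cut at 2 in either direction. Rows such as Sdf2l1, Hspa5, Syvn1 and Herpud1 are redder in the male columns than in the female columns of the same genotype, and Ahr-null female 1 stands out in rows such as P4hb, Sec61b and Creld2.

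The promoters of several of these genes carry known response elements. The ER stress response element (ERSE) binds ATF6 and XBP1 with the factor NF-Y, and was searched as CCAAT, any 9 bases and CCACG, and its short form ERSE-II as ATTGG, any 1 base and CCACG, on both strands. Windows from 250 bases before to 50 bases after the RefSeq start (GRCm38.p6) were at hand for 29 of the 34 genes. ERSE occurred in 9 of these 29 genes (9 of their 33 windows), against 0.119% of all 32851 windows. ERSE-II occurred in Herpud1 and Dnajb11 (2 of the 33 windows), against 0.0365%. The genes were listed for their roles in ER folding and stress, so these shares are a description and not independent support. The stretches below are shown because 5 of them belong to genes that separated the sexes in both genotypes, and the other 3 to genes with the same element that did not. Capitals mark the fixed letters of ERSE, or the whole ERSE-II in Herpud1, and an element on the reverse strand reads as CGTGG then ATTGG.
Hspa5: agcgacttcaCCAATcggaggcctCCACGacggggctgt
Creld2: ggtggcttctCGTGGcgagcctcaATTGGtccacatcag
Pdia6: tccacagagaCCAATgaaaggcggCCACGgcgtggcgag
Syvn1: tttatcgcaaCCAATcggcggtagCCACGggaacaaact
Herpud1: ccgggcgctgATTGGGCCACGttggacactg
Calr: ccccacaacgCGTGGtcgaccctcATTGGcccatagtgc
Canx: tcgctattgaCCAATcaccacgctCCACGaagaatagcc
Hsp90b1: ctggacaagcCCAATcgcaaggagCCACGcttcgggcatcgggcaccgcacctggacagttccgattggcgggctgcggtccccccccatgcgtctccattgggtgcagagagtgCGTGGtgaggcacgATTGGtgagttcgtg

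These stretches lie at chr2:34772015-34772053 on the plus strand for Hspa5, chr15:88819510-88819548 (plus) for Creld2, chr12:17266481-17266519 (plus) for Pdia6, chr19:6046522-6046560 (plus) for Syvn1 and chr8:94386367-94386397 (plus) for Herpud1. Those of the genes on the minus strand lie at chr8:84847065-84847103 for Calr, chr11:50325790-50325828 for Canx and chr10:86705523-86705666 for Hsp90b1. The Hsp90b1 stretch holds 2 elements in opposite orientation. The remaining genes with ERSE were Derl3 and Dnajc3. With 1 mismatch allowed, ERSE matched 15 of the 29 genes (15 of their 33 windows) and 1.5% of all windows. A further element of the response, searched as TGACGTGG, was in none of the 29 genes and in 0.676% of all windows. The core of the Ahr response element, searched as GCGTG, was in 20 of the 29 genes (21 of their 33 windows) and in 32.4% of all windows. It overlapped ERSE or ERSE-II in Calr, Canx, Hsp90b1 and Dnajb11. A match describes letters in these windows and is not a measured binding site.

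The sexes were compared first within each genotype, from separate livers. Most of the genes had higher levels in males. The fold change was above 0 in 32 of the 34 genes in the controls, against 51.2% of all genes tested, and in 28 of the 34 in the Ahr-null livers, against 45.7%. The median log2 fold change of the 34 was 0.50 in the controls, beside 0.01 over all genes, and 0.43 in the Ahr-null livers, beside -0.05. All 3 male libraries lay above all 3 female libraries for 19 of the 34 genes in the controls, against 9.38% of all genes, and for 13 of the 34 in the Ahr-null livers, against 4.83%. For 9 genes this held in both genotypes, against 1.48% of all genes: Hspa5, Hyou1, Dnajb11, Sdf2l1, Creld2, Pdia4, Pdia6, Herpud1 and Syvn1. Without control male 1 and Ahr-null female 1 it held in both genotypes for 18 genes, the same 9 and Dnajb9, Manf, Pdia3, P4hb, Xbp1, Atf6, Sel1l, Sec61a1 and Sec61b, against 4.3% of all genes. With fewer livers to separate, the share of all genes rose too. The reverse order occurred with all libraries for 1 gene, Canx, in the controls (9.19% of all genes), and for none in the Ahr-null livers (6.38%). Without the 2 libraries it occurred for Canx in the controls (16.8%) and for Edem2 in the Ahr-null livers (16.4%).

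Of single genes, Sdf2l1 passed the test in each genotype on its own (edgeR adjusted p under 0.05 over all genes; 0.198% of all genes were called higher in males in the controls and 0.227% in the Ahr-null livers). To use all 12 livers, the sex difference was also averaged over the genotypes, a contrast chosen after the separate results were seen. In it 9 of the 34 genes were called higher in males and none lower, against 0.689% and 0.381% of all genes. At an unadjusted p under 0.05, 16 were higher, against 4.33% of all genes, and none lower. The fold change was above 0 in 33 of the 34, against 46.6%. The 9 genes were Sdf2l1, Herpud1, Hspa5, Syvn1, Manf, Hyou1, Pdia4, Dnajb11 and Creld2, and Pdia6 just missed (adjusted p = 0.0541, edgeR). Without control male 1 and Ahr-null female 1 the count was 10, now with Pdia6, against 1.11% of all genes. With each library left out in turn, Sdf2l1 and Herpud1 were called in all 12 fits. The count dropped to 2 without any of control male 1 or 2, control female 1, 2 or 3, Ahr-null male 2 or Ahr-null female 3. In those fits 0.222% to 0.389% of all genes were called higher in males. The count was 4 without control male 3 (0.38% of all genes), and 5 without any of Ahr-null male 1 or 3 or Ahr-null female 2 (0.403% to 0.558%). It was 11 without Ahr-null female 1 (1.56%).

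**Figure D3:**
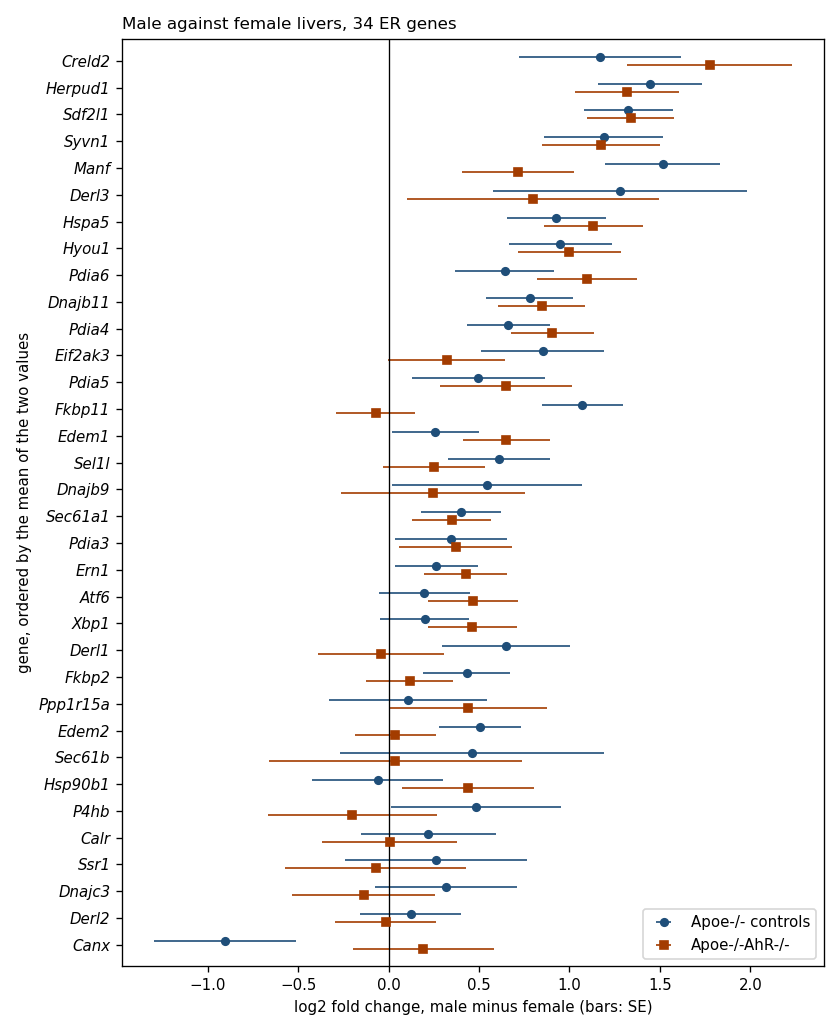
Log2 fold change of male against female livers for each of the 34 genes, in Apoe-/- controls (circles) and Apoe-/-AhR-/- livers (squares), with standard errors as bars. Of the 34 circles 32 lie above 0, and of the squares 28; Manf (1.51) is the highest circle and Creld2 (1.77) the highest square, and Canx lies below 0 in the controls (-0.91).

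Among the 9 chaperones and co-chaperones, 6 were called higher in males over both genotypes, and the median log2 fold change was 0.97. Sdf2l1 encodes a partner of the BiP co-chaperone that Dnajb11 encodes. Its level was 13.9, 12.8 and 10.3 CPM in the control males and 5.59, 4.36 and 4.74 CPM in the control females, and 18.2, 28.0 and 19.8 CPM in the Ahr-null males and 8.90, 9.49 and 7.67 CPM in the Ahr-null females. The groups did not overlap in either genotype. The log2 fold change was 1.32 ± 0.25 (SE) in the controls and 1.34 ± 0.24 in the Ahr-null livers, with edgeR adjusted p = 0.0426 and 0.0349, and 1.33 ± 0.17 over both (adjusted p = 0.00164). Within a genotype the call was lost in 10 of the 12 fits that left out a library, with adjusted p up to 0.250 in the controls and 0.186 in the Ahr-null livers. Its promoter window held no ERSE.

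Hspa5, for BiP, the main ER form of the HSP70 chaperones, was at 348, 295 and 213 CPM in the control males and 145, 168 and 138 CPM in the control females. In the Ahr-null livers it was at 368, 386 and 338 CPM in males and 178, 160.4 and 161 CPM in females. Every male liver was above every female liver, across genotypes as well. Over both genotypes BiP RNA was 2.04 times as high in males (log2 1.03 ± 0.19, edgeR adjusted p = 0.0226).

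Hyou1 encodes the large HSP70-like protein that exchanges the nucleotide on BiP. Its level was 36.7, 37.9 and 33.2 CPM in the control males against 18.5, 15.4 and 21.8 CPM in the control females. In the Ahr-null livers it was 36.3, 47.6 and 77.9 CPM in males against 29.4, 27.3 and 24.3 CPM in females. The sexes were apart in both genotypes, with Ahr-null male 3 far above the other males. The averaged log2 fold change was 0.97 ± 0.20 (edgeR adjusted p = 0.0363), and 0.80 without Ahr-null male 3, where the call was lost (adjusted p = 0.0535). The call was lost in 10 of the 12 fits that left out a library, with adjusted p up to 0.132.

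Dnajb11, for the J-domain protein that delivers unfolded clients to BiP, was at 48.4, 46.7 and 38.8 CPM in the control males and 29.0, 22.1 and 26.8 CPM in the control females. Its Ahr-null values were 52.2, 63.8 and 52.7 CPM in males and 24.4, 35.6 and 33.8 CPM in females. All 6 males were above all 6 females. The averaged log2 fold change was 0.81 ± 0.17 (edgeR adjusted p = 0.0367).

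Creld2, for an ER protein with EGF-like repeats that is induced in ER stress, had the largest averaged fold change of the 34 genes with all libraries, 1.47 ± 0.32 (log2, edgeR adjusted p = 0.0477). It was at 71.2, 49.5 and 45.3 CPM in the control males against 25.3, 25.0 and 23.5 CPM in the control females. In the Ahr-null livers it was at 84.7, 105 and 42.3 CPM in males against 8.99, 37.4 and 21.1 CPM in females. The lowest of all 12 values was that of Ahr-null female 1, and without it and control male 1 the log2 fold change was 1.18 ± 0.24 (adjusted p = 0.0216), below the values of Herpud1 (1.41), Sdf2l1 (1.30) and Manf (1.20) in that fit. Manf, for a secreted protein that binds BiP, was at 51.8, 41.6 and 32.0 CPM in the control males and 15.7, 12.5 and 15.6 CPM in the control females. In the Ahr-null livers its male values were 45.9, 60.7 and 62.3 CPM and its female values 49.1, 32.6 and 21.4 CPM. The sexes overlapped there only because of Ahr-null female 1. The averaged log2 fold change of Manf was 1.11 ± 0.22 (edgeR adjusted p = 0.0295).

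The other 3 chaperone genes were not called. Hsp90b1 had an averaged log2 fold change of 0.19 ± 0.26, Dnajb9 0.40 ± 0.37 and Dnajc3 0.09 ± 0.28. Dnajb9 was at 0.89 ± 0.22 without control male 1 and Ahr-null female 1, still not called (edgeR adjusted p = 0.0608), and it was called without Ahr-null female 1 alone. Hsp90b1 was at 734, 554 and 513 CPM in the control males against 478, 894 and 507 CPM in the control females, so its sexes overlapped. Its highest value was in control female 2.

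All 5 disulfide isomerase genes had an averaged fold change above 0, and 1 was called. Pdia4, for an isomerase with an extra thioredoxin-like domain, was at 62.5, 81.4 and 61.4 CPM in the control males and 43.5, 41.5 and 44.7 CPM in the control females. Its Ahr-null values were 82.8, 87.2 and 99.6 CPM in males and 52.3, 43.2 and 48.5 CPM in females. The sexes did not overlap in either genotype. The control males spread most, with an SD of 11.2 CPM, beside means of 68.4 CPM in them and 43.2 CPM in the control females. The averaged log2 fold change of Pdia4 was 0.78 ± 0.16 (edgeR adjusted p = 0.0363). The call held in 1 of the 12 fits that left out a library, with adjusted p up to 0.114. Pdia6, for an isomerase that works with BiP, separated the sexes in both genotypes as well. It was at 48.7, 44.2 and 43.9 CPM against 25.1, 34.8 and 27.9 CPM in the controls, and at 52.2, 49.1 and 88.9 CPM against 34.6, 27.3 and 27.1 CPM in the Ahr-null livers, males first. Its log2 fold change of 0.87 ± 0.19 did not pass in this fit. Pdia3, Pdia5 and P4hb had averaged log2 fold changes of 0.36 ± 0.22, 0.57 ± 0.26 and 0.14 ± 0.33. Without control male 1 and Ahr-null female 1, P4hb was at 0.67 ± 0.22 (edgeR adjusted p = 0.146).

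Of the 8 degradation genes all had averaged fold changes above 0, and Herpud1 and Syvn1 were called. Herpud1 encodes a membrane protein that organises the degradation complex around the ubiquitin ligase that Syvn1 encodes. Its level was 175, 191 and 130.0 CPM in the control males and 72.9, 40.5 and 68.4 CPM in the control females. In the Ahr-null livers it was 117, 109.6 and 131 CPM in males and 53.2, 41.5 and 48.8 CPM in females. The lowest male value, 109.6 CPM, was above the highest female value, 72.9 CPM. Herpud1 was 2.61 times as high in males over both genotypes (log2 1.38 ± 0.20, edgeR adjusted p = 0.00476). Within a genotype it did not pass, with 1.45 ± 0.29 in the controls (adjusted p = 0.0616) and 1.32 ± 0.29 in the Ahr-null livers (adjusted p = 0.102). Without control male 1 and Ahr-null female 1 it passed in both, with adjusted p = 0.0389 and 0.0462.

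Syvn1 was at 139, 122 and 105 CPM in the control males against 57.9, 39.9 and 62.7 CPM in the control females. It was at 197, 250.1 and 145 CPM in the Ahr-null males against 63.6, 121 and 77.7 CPM in the Ahr-null females. The sexes did not overlap within either genotype, but Ahr-null female 2 reached the level of the control males. The averaged log2 fold change was 1.18 ± 0.23 (edgeR adjusted p = 0.0266). Its partner Sel1l had 0.43 ± 0.20, the mannosidase-like Edem1 and Edem2 had 0.45 ± 0.17 and 0.27 ± 0.16, and the derlins Derl1, Derl2 and Derl3 had 0.30 ± 0.25, 0.05 ± 0.20 and 1.04 ± 0.49, none of them called. Without the 2 libraries Derl1 was at 0.62 ± 0.19 and Derl3 at 0.55 ± 0.48. Derl3 had the least reads of the group, with 0.917 to 9.25 CPM across the 12 libraries.

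None of the sensors was called for sex. Eif2ak3 was at 0.59 ± 0.23 over both genotypes (log2, edgeR adjusted p = 0.431). Xbp1, whose spliced RNA encodes the active factor (the counts do not separate the spliced form), was at 0.33 ± 0.17 in log2 fold change over both genotypes (edgeR adjusted p = 0.616). Atf6 and Ern1 were each at 0.33 ± 0.18 and 0.34 ± 0.16 on that scale, with adjusted p = 0.622 and 0.545. Xbp1 and Ern1 nevertheless had all 3 Ahr-null males above all 3 Ahr-null females. Xbp1 was at 43.4, 48.5 and 50.2 CPM against 30.3, 32.6 and 40.2 CPM there, and at 40.8, 55.4 and 48.4 CPM against 31.6, 46.6 and 47.8 CPM in the controls, where the sexes overlapped. Ppp1r15a, for the phosphatase subunit that ends the translation block set by PERK, had 0.27 ± 0.31.

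Neither lectin chaperone was called for sex. Calr, whose promoter stretch holds ERSE, had a log2 fold change of 0.22 ± 0.37 in the controls and 0.01 ± 0.37 in the Ahr-null livers. It was at 629.5, 593 and 475 CPM in the control males and 428, 632 and 399 CPM in the control females, so the sexes overlapped. Canx, for the membrane-bound lectin chaperone calnexin, was at 172, 163 and 165 CPM in the control males against 226, 487 and 225 CPM in the control females (log2 -0.91 ± 0.39, edgeR adjusted p = 0.800). Control female 2, the library with the highest Canx and Hsp90b1 levels, had the largest mitochondrial share of counts, 69.8%, and the part of that share in these values was not tested. ERSE or ERSE-II was in the windows of 6 of the 8 genes with a window that separated the sexes in both genotypes with all libraries, and in 5 of the other 21, counts that are given as a description. Without control male 1 and Ahr-null female 1 the separating set grew to 18 genes. The added genes that had a window held neither element, so the contrast between the sets was smaller there.

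**Figure D4:**
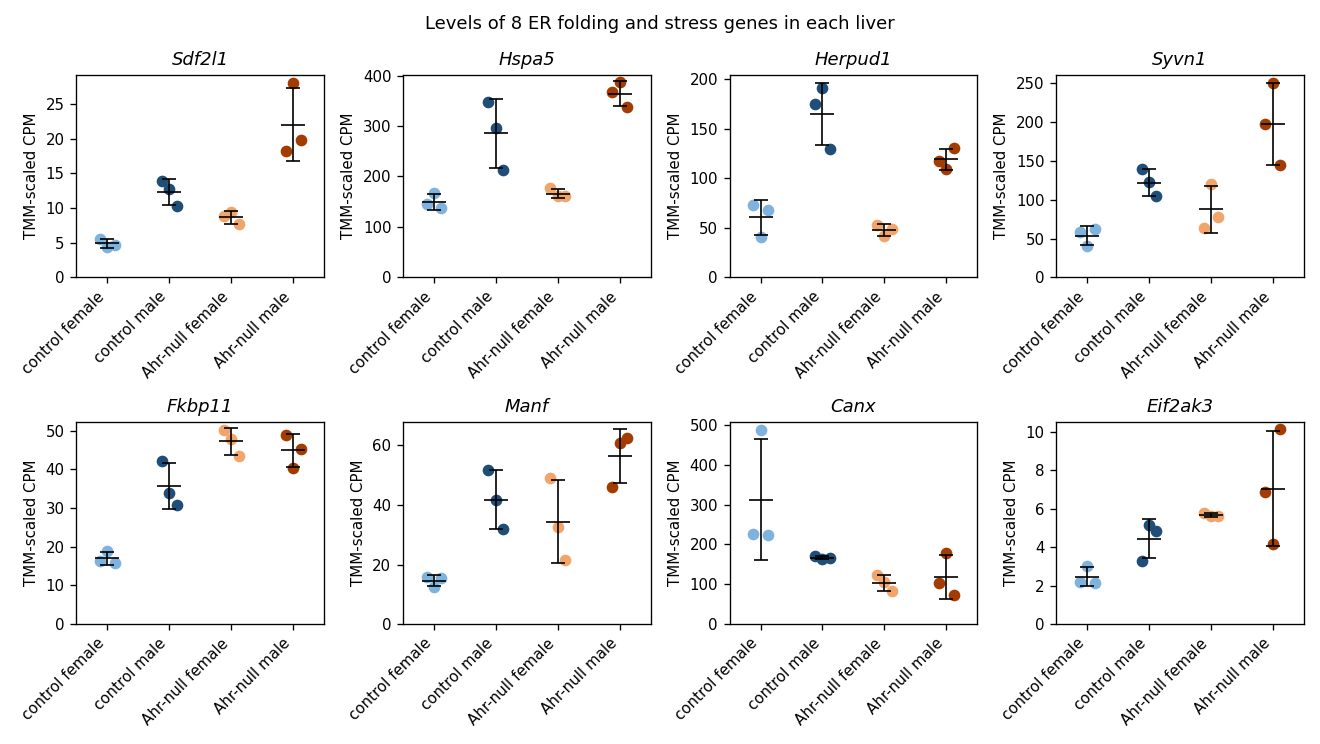
TMM-scaled CPM of 8 genes in each liver; points are livers, the long bar is the mean and the whiskers are the SD of 3. Sdf2l1, Hspa5, Herpud1 and Syvn1 separate males from females in both genotypes, whereas Fkbp11 is lowest in the control females (15.7 to 18.9 CPM) and Canx is highest there (225 to 487 CPM).

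Fewer of the genes were called for the Ahr genotype, a comparison that rests on the labels. Averaged over the sexes, 2 of the 34 genes were called higher in the Ahr-null livers, Fkbp11 and Sdf2l1, and none lower, against 0.528% of all genes in each direction. At an unadjusted p under 0.05, 12 of the 34 were counted, against 15.3% of all genes; higher were 11 of the 34 (32.4%), against 7.84% of all genes. The fold change was above 0 in 24 of the 34 genes, against 54.2% of all genes, and the median was 0.25 beside 0.04 over all genes. Within the males none of the 34 was called (edgeR), against 0.0367% of all genes. At an unadjusted p under 0.05 Sdf2l1 alone was counted (5.81% of all genes), and DESeq2 and limma-voom called none. Within the females Fkbp11 was called higher, against 0.0293% of all genes. All Ahr-null libraries lay above all control libraries for 8 genes in the males (6.55% of all genes) and for 10 in the females (9.22%). Both held for Sdf2l1, Edem2, Syvn1 and Sec61a1 (1.28% of all genes). The reverse order was seen for Canx in the females (9.86%) and for no gene in the males (7.34%). Without control male 1 and Ahr-null female 1, the fold change in females was above 0 in 18 of the 34 genes (52.5% of all genes), and the median of the 34 there was 0.10. In males it was above 0 in 24 (53.1%). In the females the Ahr-null libraries then lay above the controls for 11 genes (20.5%) and below them for 5, Hsp90b1, Calr, Canx, Atf6 and Ssr1 (21.7%), both shares with fewer livers to separate. In the males they lay above for 13 genes (10.9%) and below for none (12.1%).

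**Figure D5:**
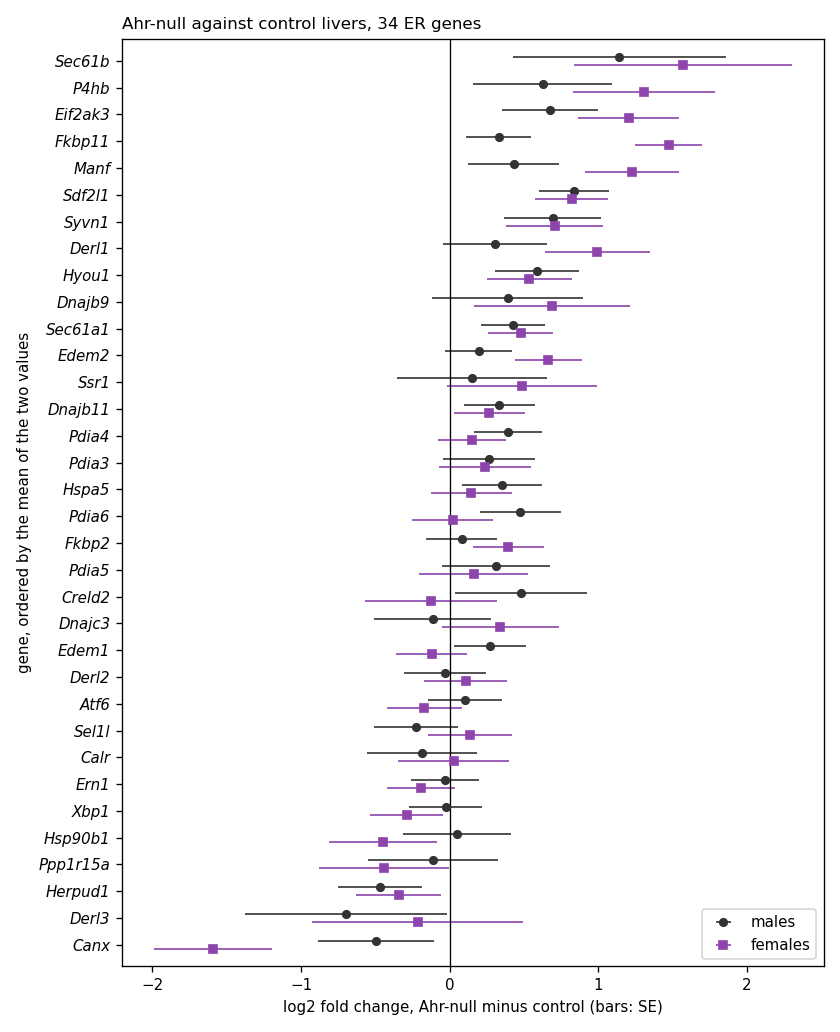
Log2 fold change of Ahr-null against control livers for each of the 34 genes, in males (circles) and females (squares), with standard errors as bars. In either sex 24 of the 34 points lie above 0, beside 50% of all genes in males and 54.9% in females, but in females 18 without control male 1 and Ahr-null female 1; Fkbp11 lies at 1.47 in females and 0.33 in males, and Canx lies lowest in females at -1.59.

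Fkbp11 encodes a prolyl isomerase of the ER that is abundant in secretory cells. Its level was 16.3, 18.9 and 15.7 CPM in the control females and 50.1, 47.9 and 43.5 CPM in the Ahr-null females. In males it was 42.2, 33.97 and 30.8 CPM in the controls and 48.9, 40.4 and 45.2 CPM in the Ahr-null livers. The control females stood alone at a low level, and the Ahr-null males overlapped both the control males and the Ahr-null females. The log2 fold change was 1.47 ± 0.22 in females (edgeR adjusted p = 0.0405), 0.33 ± 0.22 in males (adjusted p = 0.980) and 0.90 ± 0.16 averaged (adjusted p = 0.0186). The difference between the sexes in this effect, -1.14 ± 0.31, did not pass over all genes (adjusted p = 0.836). None of the 34 genes passed that interaction test in edgeR, where 0.00733% of all genes were called and 1 of the 34 was counted at an unadjusted p under 0.05 (4.6% of all genes), while DESeq2 called Fkbp11 (adjusted p = 0.0403). In the female comparison the call was lost in 10 of the 12 fits that left out a library, with adjusted p up to 0.189, and it held without control male 1 and Ahr-null female 1 together. Plasma cells also express Fkbp11, and the 3 markers of a list of 10 that the table holds summed to 0.631 to 2.29 CPM in the libraries, with 0.721 to 2.29 CPM in the Ahr-null females against 1.17 to 1.75 CPM in the control females. Of these markers Mzb1 and Tnfrsf17 were at or near 0, with at most 0.221 and 0.421 CPM. The 13 markers of pancreatic acinar cells summed to 2.48 to 10.3 CPM in the Ahr-null females and 2.55 to 3.49 CPM in the control females.

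Sdf2l1 was higher by nearly the same step in both sexes, 0.84 ± 0.24 in males and 0.82 ± 0.25 in females (log2), and 0.83 ± 0.17 averaged (edgeR adjusted p = 0.0381). Its order over the groups ran from control females (4.90 ± 0.63 CPM, SD, n = 3) through Ahr-null females (8.69 ± 0.93) and control males (12.3 ± 1.82) to Ahr-null males (22.0 ± 5.29), and no 2 groups overlapped. The averaged count of called genes was 0 without any of control male 2 or 3, control female 1, 2 or 3 or Ahr-null male 1 or 3. In those fits 0.0419% to 0.228% of all genes were called in either direction. The count was 1, Fkbp11, without any of control male 1 or Ahr-null female 2 or 3 (0.362% to 0.717% of all genes). It was 4 (3 higher, and Canx lower) without Ahr-null male 2 (1.99%). It was 6 (5 higher, and Canx lower) without Ahr-null female 1 (4.78%). The share of all genes called thus moved with the count. Without both control male 1 and Ahr-null female 1, Sdf2l1, Fkbp11, Manf and Syvn1 were called (1.5% of all genes were called higher).

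Syvn1 and Manf had averaged log2 fold changes of 0.70 ± 0.23 and 0.83 ± 0.22 with all libraries, where neither passed (edgeR adjusted p = 0.175 and 0.0985). Sec61a1, for the pore of the translocon, was at 12.2, 15.2 and 16.7 CPM in the control males and 19.2, 21.7 and 18.4 CPM in the Ahr-null males. In the females it was at 12.8, 8.94 and 11.6 CPM in the controls and 15.2, 16.2 and 15.1 CPM in the Ahr-null livers. The genotypes did not overlap in either sex, with a modest log2 fold change of 0.45 ± 0.15 (edgeR adjusted p = 0.188). Edem2, for a protein that trims mannose from failed glycoproteins, was at 64.6, 71.0 and 66.7 CPM in the control males and 78.2, 75.4 and 78.3 CPM in the Ahr-null males. In the females it was at 48.7, 40.2 and 53.6 CPM in the controls and 66.5, 81.2 and 78.3 CPM in the Ahr-null livers. Again the genotypes were apart in both sexes, with 0.43 ± 0.16 (adjusted p = 0.215).

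Among the sensors Eif2ak3, for the kinase PERK, stood apart from the others. It was at 3.28, 5.18 and 4.84 CPM in the control males, 2.21, 3.05 and 2.16 CPM in the control females, 6.86, 4.18 and 10.1 CPM in the Ahr-null males and 5.78, 5.65 and 5.63 CPM in the Ahr-null females. The females were apart by genotype and the males overlapped. Its averaged log2 fold change was 0.94 ± 0.24 (edgeR adjusted p = 0.0819). The gene passed without Ahr-null male 2 (adjusted p = 0.0245) and without Ahr-null female 1 (adjusted p = 0.0373), fits that called 1.99% and 4.78% of all genes. It did not pass in the other 10 of the 12 fits that left out a library, with adjusted p up to 0.234. Without control male 1 and Ahr-null female 1 together it was at 0.87 ± 0.24 (adjusted p = 0.0682). Atf6, Ern1 and Xbp1 had values of -0.03 ± 0.18, -0.11 ± 0.16 and -0.16 ± 0.17, with adjusted p = 0.956, 0.806 and 0.725. Ppp1r15a had -0.28 ± 0.31.

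Canx was the member with the lowest genotype value, -1.04 ± 0.28 averaged, which did not pass (edgeR adjusted p = 0.100). It was at 104, 179 and 72.4 CPM in the Ahr-null males and 123, 106 and 82.2 CPM in the Ahr-null females, against 163 to 172 CPM in the control males and 225 to 487 CPM in the control females. The females were apart and the males overlapped. Its lowest level was in Ahr-null male 3, which had the smallest mitochondrial share, 30.4%, and its highest in control female 2, with 69.8%. Ahr-null female 3, at 82.2 CPM, had a share of 59.8%. The part of this share in the Canx values was not tested. Canx was called lower in 3 of the other fits: with DESeq2 (-1.03 ± 0.28, adjusted p = 0.00886), without Ahr-null male 2 (-1.25 ± 0.26, edgeR adjusted p = 0.0369) and without Ahr-null female 1 (-1.11 ± 0.27, edgeR adjusted p = 0.0325). It was not called when scaled without the mitochondrial genes (-1.04 ± 0.28, edgeR adjusted p = 0.101) or without control male 1 and Ahr-null female 1 together (-1.09 ± 0.29, adjusted p = 0.0593). Calr and Herpud1 had averaged genotype values of -0.08 ± 0.26 and -0.41 ± 0.20 (adjusted p = 0.930 and 0.360); Herpud1 was thus called for sex and not for genotype.

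Several members were high in the 2 libraries with the highest hepatocyte sums, Ahr-null female 1 and Ahr-null male 3. Sec61b, for the small beta subunit of the translocon, was at 37.9 and 35.5 CPM in them and at 4.69 to 8.66 CPM in the other 10. P4hb was at 554 and 348 CPM in them and at 105 to 234 CPM in the others. The spread of both genes within the Ahr-null groups was therefore large, and their averaged log2 fold changes of 1.36 ± 0.51 and 0.97 ± 0.33 did not pass (edgeR adjusted p = 0.226 and 0.192). Without control male 1 and Ahr-null female 1 they were 0.59 ± 0.44 and 0.47 ± 0.22 (adjusted p = 0.483 and 0.239). The averaged sex values of Sec61b were 0.25 ± 0.51 with all libraries and 1.06 ± 0.44 without those 2 (adjusted p = 0.949 and 0.261). Ssr1, for a subunit of the translocon-associated complex, had averaged genotype values of 0.32 ± 0.36 and -0.11 ± 0.19 in the same order (adjusted p = 0.729 and 0.803). Other members went the other way in Ahr-null female 1, where Creld2 (8.99 CPM), Pdia5 (13.6) and Ppp1r15a (7.34) had their lowest of 12 values. Alb alone gave 55077 of the hepatocyte sum of 85137 CPM in that library. The part of the hepatocyte sum, the neural transcripts or the mitochondrial share in the values of these members was not tested.

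Other ER genes, from 5 further lists, set the members in context. Of 34 other folding factors, 28 other translocon and glycosylation genes, 21 other degradation genes and 29 genes of ER exit and retrieval, none was called for sex or for genotype averaged over the sexes. Their median log2 fold changes for sex over both genotypes were 0.20, 0.21, 0.17 and 0.22, beside 0.39 for the 34 members and -0.03 for all genes. Their medians for the averaged genotype were 0.22, 0.33, 0.02 and 0.29. Of the folding factors, Ero1lb just missed for sex over both genotypes (log2 0.74 ± 0.16, edgeR adjusted p = 0.0505). Its males lay above its females in both genotypes, an order that 1.48% of all genes had. Ero1lb was at 21.4 to 28.3 CPM against 11.9 to 19.2 CPM in the controls, males first. In the Ahr-null livers it was at 21.4 to 25.1 CPM against 12.2 to 14.1 CPM. Of 23 other genes of unfolded protein response signalling, 1 was called, Asns, the asparagine synthetase that is induced through PERK and by amino acid shortage. Asns was at 2.44, 1.32 and 0.637 CPM in the control males, 0.207 CPM in control female 1 and 0 in the other control females. It was at 3.19, 13.02 and 5.36 CPM in the Ahr-null males and 5.14, 0.661 and 1.32 CPM in the Ahr-null females (averaged log2 3.49 ± 0.70, edgeR adjusted p = 0.0360). Fgf21, a hormone gene of the same branch, was at 0.749 to 4.14 CPM in the control livers and at 3.86 to 36.9 CPM in the Ahr-null livers, where 3 of the 6 were above 34 CPM and 3 below 5 CPM (adjusted p = 0.0520). Trib3, of the same list, was at 10.7 to 12.1 CPM in the control males and 4.11 to 9.98 CPM in the Ahr-null males. In females it went the other way, at 1.96 to 4.24 CPM in the controls and 7.25 to 11.6 CPM in the Ahr-null livers. Trib3 did not pass for the genotype in females (log2 1.45 ± 0.37, edgeR adjusted p = 0.138). The interaction did not pass either (-1.97 ± 0.51, edgeR adjusted p = 0.836). The 23 signalling genes had medians of 0.25 for the averaged genotype and 0.23 for sex over both genotypes. At an unadjusted p under 0.05 in either direction, 15.3% of all genes were counted for the averaged genotype. Of the lists, translocon (8 genes, 28.6%) and signalling (6, 26.1%) were above that share, and folding (3, 8.82%), exit (2, 6.9%) and degradation (1, 4.76%) were below it. For sex over both genotypes 9.41% of all genes were counted. Translocon (7 genes, 25%), signalling (3, 13%) and degradation (2, 9.52%) were above or near that share, and exit (2, 6.9%) and folding (2, 5.88%) were below it. These shares are descriptions of the lists.

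The sources used here name neither the read counter nor its strand setting. Exons of 6 members, Derl2, Manf, Pdia3, Pdia6, Ppp1r15a and Syvn1, overlap exons of another protein-coding gene in the annotation, so their counts are less certain than the rest. Dnajb9, Pdia6 and Sel1l lie on chromosome 12, as does Ahr.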

How the data were processed

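The 34 genes, the other gene lists and the tests were chosen with earlier results of these data known. Per the file headers, the authors deposited raw read counts per gene and variance-stabilised values on a log2-like scale made with DESeq2. The submitters' processing notes name STAR 2.7.8, with FastQC 0.11.8 and, for the reads, Trim Galore 0.6.5; they also name DESeq2 1.28.1, and GRCm38 as the build. RNA had an average RIN of 7.0 per the labels. The read counter and the release of the annotation were not given in the sources used here.

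Counts were tested with edgeR 4.0.16 (R 4.3.3): filterByExpr by the 4 groups, TMM scaling, a robust quasi-likelihood fit with a mean per group over 12 libraries (8 residual degrees of freedom), two-sided tests, and Benjamini-Hochberg adjustment over 13641 genes, called under 0.05. Fold changes are male minus female or Ahr-null minus control. The 6 planned contrasts were the genotype in males, in females and averaged, the interaction, and the sex difference in each genotype. The sex difference averaged over genotypes and the fit without 2 libraries were added after seeing the data. Levels per length use the union of exons of GENCODE M21. Promoter windows are RefSeq's (GRCm38.p6) and were matched by symbol.

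Named genes were those called in a planned contrast, the 4 with the smallest p in each, the sensors and Xbp1, the highest and lowest level per length, and those whose genotypes did not overlap in both sexes. Genes of the added contrast and single members such as P4hb, Sec61b, Pdia4, Dnajb11 and Creld2 were named after their values were seen. So were Fgf21, Trib3 and Ero1lb of the other lists. One count was worth at most 0.102 CPM, and counts carry counting error besides the spread between livers. No replicate pair was alike within counting noise (chi-square per degree of freedom 22.2 to 248). On simulated counts for the averaged genotype contrast (13628 genes), 24 of 97 genes changed 2-fold were called (24.7%) and 89 of 96 changed 4-fold (92.7%), with 7 false calls, so a change of 2-fold can go uncalled. Alternatives were other scalings, filters, DESeq2 1.42.0, limma-voom and limma 3.58.1 on the deposited values, and leaving out each library.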

Additional observations from a re-analysis of the deposited data

How the results depend on the processing

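No paired analysis was possible because replicate numbers follow accession order only. The fold changes of 33 gene and contrast pairs were recomputed under 22 alternatives each, 726 values in all. The pairs were those called, or among the 4 smallest p of the 34 genes in a contrast. None changed sign, which the choice of the strongest pairs made likely. Outside these pairs signs did change, as for the averaged genotype value of Ssr1 given above. Of the 726 values, 574 kept their side of the threshold, 125 calls were lost and 27 gained. Members called for the averaged genotype numbered 2 (1.06% of all genes were called), but 11 with library size alone as the scaling (7.72%). They numbered 8 with DESeq2, 7 higher and Canx lower (4.9%), and 4 without control male 1 and Ahr-null female 1 (3.14%). The count was 1 without a low-count filter (0.579%) or with limma-voom (0.836%), and 0 to 6 with 1 library left out (0.0419% to 4.78%). The genotype in females gave 1 (0.161%), but 2 with library size alone (0.85%) and 5 with DESeq2 (3.62%). With 1 library left out it gave 0 to 1 (0.0207% to 1.1%). The interaction gave 0 (0.00733%), but 1 with DESeq2 (0.148%). Sex in the controls gave 1 (0.352%), but 0 with library size alone (0.469%), without a low-count filter (0.225%) or with limma-voom (0.264%). It gave 7 with DESeq2 (1.05%), 3 without the 2 libraries (0.559%) and 0 to 4 with 1 left out (0.132% to 0.728%). Sex in the Ahr-null livers gave 1 (0.279%), but 0 with library size alone (0.396%) and 9 with DESeq2 (1.7%). It gave 2 without the 2 libraries (0.799%) and 0 to 2 with 1 left out (0.0766% to 0.649%). Sex averaged over genotypes gave 9 (1.07%), 7 without a low-count filter (0.624%), and 8 with library size alone (1.06%) or limma-voom (0.858%). It gave 11 with DESeq2 (2.64%) and 2 to 11 with 1 left out (0.347% to 2.59%). Pdia4 and Dnajb11 were not called without the filter or with library size alone, nor Creld2 with limma-voom. The genotype in males gave 0 throughout. The cause was not tested. Scaling by library size alone moved the median of all genes by 0.50 (averaged genotype), 0.30 (sex, controls) and 0.25 (sex, Ahr-null); relative to it, 24, 32 and 30 of the 34 genes lay above the median, as with TMM.

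Over all genes, calls were 144 for the averaged genotype (6 to 663 with 1 library left out, 114 to 1053 otherwise), 5 in males (0 to 57, 3 to 106), 22 in females (3 to 153, 19 to 491), 1 for the interaction (0 to 2, 0 to 20), 48 for sex in the controls (19 to 101, 36 to 142), 38 in the Ahr-null livers (11 to 90, 35 to 226) and 146 averaged (50 to 359, 117 to 358). With the longest transcript as the length, Calr was at 234 CPM per kilobase in place of 178.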
